A study of Mus musculus with 4 samples.

Results

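In all, 4 genes that restrain the kinase mTOR and 6 that are induced by ERK signalling, most of them to dampen it, were followed. The cells were aortic smooth muscle cells of mice with or without floxed TGF-beta receptor genes. The members were Ddit4l, Ddit4, Deptor and Sesn1 on the mTOR side and Etv4, Etv5, Spry1, Spry2, Spry4 and Dusp6 on the MAPK side, 10 of the 32287 genes in the matrices, found by their symbols. Each symbol matched 1 gene row. The KO group was Tgfbr1/2iSMCKO, with floxed alleles of Tgfbr1 and Tgfbr2, Myh11-CreERT2 and the mT/mG reporter, and the WT group was GFPiSMC, with Myh11-CreERT2 and mT/mG only. All mice were C57BL/6J, aged 12 weeks, and both genotypes had received tamoxifen for 5 days. Its dose was 1 mg per day at 4 weeks of age or 2 mg per day at 11 weeks. The course is not stated library by library, so that a difference in course and one in genotype cannot be told apart. GFP-positive cells of the ascending aorta and aortic arch were sorted, so that cells in which the Myh11 promoter had driven Cre were profiled, with 2 single-cell libraries per genotype.

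mTOR complex 1 promotes protein synthesis and growth when nutrients and growth factors are present. DDIT4 and its paralog DDIT4L act upstream of it through the TSC complex, DEPTOR binds mTOR itself, and sestrins such as SESN1 lower its activity when amino acids are scarce or p53 is active. The RAS-RAF-MEK-ERK cascade carries signals of growth factor receptors, and active ERK induces genes that limit it. Sprouty proteins (SPRY) act between receptor and RAF, the phosphatase DUSP6 removes the activating phosphates from ERK, and ETV4 and ETV5 are ETS transcription factors induced by FGF and ERK signalling. Both pathways are known regulators of smooth muscle growth and contractile state.

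The kept cells held 59203071 and 50605349 UMIs (unique molecular identifiers, each counting 1 captured transcript) in the KO libraries and 35255748 and 49723949 in the WT libraries. Between 98.6% and 99.1% of kept cells per library held UMIs of all 4 of Myh11, Acta2, Tagln and Cnn1. All 12 smooth muscle markers were tested, of which 5 rose in KO (Des, Mustn1, Myh11, Mylk and Tpm2) and 1 fell (Smtn). That list summed to 63620 and 60290 CPM in KO and 52310 and 54270 CPM in WT. Both floxed genes still gave 3′ tags in KO, with Tgfbr1 at 74.7 ± 2.00 CPM in KO and 81.6 ± 1.06 CPM in WT, and Tgfbr2 at 46.9 ± 0.60 CPM in KO and 48.4 ± 4.64 CPM in WT (SD, n = 2 each, edgeR adjusted p = 0.203 and 0.752). Such tags check nothing about the deletion where they lie outside the floxed exons, which are not named in the sources used here. The 10 macrophage markers summed to 11.5 CPM in KO 1 and to 1.67 to 1.74 CPM in the other 3 libraries, and the median mitochondrial share was 4.63% in WT 1 against 3.76% to 3.86% elsewhere. Markers of other cell types also moved with genotype. Of 10 endothelial markers 7 were tested, of which 5 rose in KO (Cdh5, Cldn5, Egfl7, Tek and Vwf) and 2 fell (Erg and Pecam1), and the list summed to 34.3 and 34.5 CPM in KO and 42.6 and 46.5 CPM in WT. Cdh5 had 0.505 and 0.603 CPM in KO and was at 0 in both WT libraries, as were Tek and Emcn. Of 10 fibroblast markers 9 were tested, of which 4 rose (Dpt, Lum, Ly6a and Serpinf1) and 1 fell (Col14a1), with sums of 132 and 136 CPM in KO and 134 and 155 CPM in WT. Lum had 10.8 and 18.6 CPM in KO and 1.204 and 0.894 CPM in WT. Without the few cells that held at least 3 endothelial or at least 3 leukocyte markers, the same number of members was called, 4 higher and 1 lower, while the part of fibroblast markers and of the mitochondrial share in the results was not tested. The libraries of any pair shared between 3 and 6 cell barcodes. How many mice a library holds is not given, so p-values measure the spread between these libraries.

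Of the 10 members, 9 had enough counts to be tested, and 5 of them differed between the genotypes. Ddit4l, Deptor, Etv5 and Spry2 rose in KO cells and Spry1 fell, while Ddit4, Sesn1, Spry4 and Dusp6 did not pass. Of all 14474 tested genes, 9.17% were called higher and 11.1% lower at an adjusted p of 0.05. By count, 4 of 9 higher was above that background and 1 of 9 lower was close to it. The members were chosen with earlier results of these data known, so these counts are a description and no result about the list. In 7 of the 9 members the genotypes did not overlap, 4 with KO higher and 3 with KO lower. Among all tested genes that share was 63.5%, with 31.3% higher and 32.3% lower, so a lack of overlap alone was common. The median log2 difference of the 9 members was 0.02 and that of all tested genes 0.00, since the members moved in both directions. Values are given as CPM, UMI counts scaled to a common library size with TMM factors. Only the sums of the cell type marker lists were scaled to the kept UMIs of each library without these factors. A UMI is counted once per transcript whatever its length. In such libraries fewer cells expressing a gene and less RNA per cell cannot be told apart from the sums alone.

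**Figure D1:**
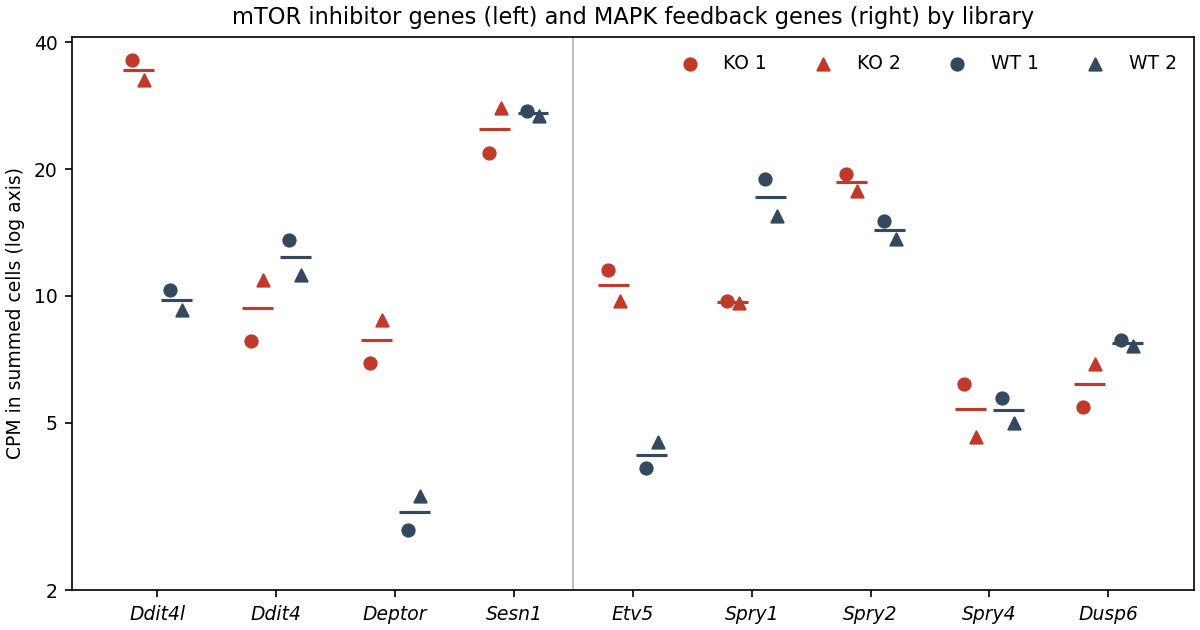
CPM of the 9 tested members (log axis) in each library, KO in red and WT in dark blue, with circles and triangles for the first and second library and a bar at each mean. Ddit4l stood at 36.3 and 32.6 CPM in KO against 10.3 and 9.26 CPM in WT, the widest separation, and Spry1 lay lower in both KO libraries.

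Ddit4l, an inhibitor of mTOR complex 1, rose most among the members. It had 36.3 and 32.6 CPM in KO 1 and KO 2, against 10.3 and 9.26 CPM in WT 1 and WT 2, from 2153, 1675, 360 and 456 UMIs. The genotypes did not overlap, and the libraries of each genotype differed by far less than the genotypes did. The fitted difference was 3.53-fold (log2 1.82, SE 0.10, adjusted p = 1.84e-05, edgeR's quasi-likelihood test), and it ranged from 1.72 to 1.89 over 17 alternatives. Ddit4l lies on chromosome 3 from 137621612 to 137628333 (GRCm38, GENCODE M21) and overlaps no other annotated gene.

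Its paralog Ddit4, which is induced by stress, hypoxia and glucocorticoids, lay in the other direction without passing the test. Ddit4 had 7.81 and 10.9 CPM in KO, against 13.5 and 11.2 CPM in WT (log2 −0.40, SE 0.16, adjusted p = 0.126). The genotypes did not overlap, but KO 2 lay close to WT 2, while KO 1 was the lowest library. Without KO 2 the difference was −0.66 and passed (adjusted p = 0.0138), and without KO 1 it was −0.18 (adjusted p = 0.461). The ratio of Ddit4l to Ddit4 CPM was 4.64 and 2.99 in KO and 0.763 and 0.825 in WT. Ddit4l thus supplied 82.3% and 74.9% of the UMIs of the pair in KO, against 43.3% and 45.2% in WT. Their sum was 44.1 and 43.5 CPM in KO and 23.9 and 20.5 CPM in WT.

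The RefSeq promoters of this pair (GRCm38.p6, windows of 300 bases around an annotated start) are shown because the paralogs moved apart. That of Ddit4l is chr3:137623422-137623721 on the plus strand and that of Ddit4 is chr10:59951721-59952020 on the minus strand. Capitals mark the TATA box letters TATAAA in the first and the CCAAT box, read as ATTGG on the other strand, in the second.
Ddit4l: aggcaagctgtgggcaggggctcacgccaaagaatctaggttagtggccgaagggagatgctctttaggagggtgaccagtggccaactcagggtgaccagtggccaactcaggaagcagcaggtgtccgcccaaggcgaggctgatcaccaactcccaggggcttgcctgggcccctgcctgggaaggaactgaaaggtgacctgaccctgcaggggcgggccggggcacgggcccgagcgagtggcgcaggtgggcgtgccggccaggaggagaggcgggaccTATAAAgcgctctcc
Ddit4: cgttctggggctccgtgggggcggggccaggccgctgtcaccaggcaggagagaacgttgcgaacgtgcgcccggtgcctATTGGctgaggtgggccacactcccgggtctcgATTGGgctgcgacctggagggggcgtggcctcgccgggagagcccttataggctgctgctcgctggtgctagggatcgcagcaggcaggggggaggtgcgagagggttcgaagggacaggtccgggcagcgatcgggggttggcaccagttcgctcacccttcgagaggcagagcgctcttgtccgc
Ddit4l held 1 match to TATAAA, downstream of the annotated start, and Ddit4 held 2 to CCAAT. Over both strands 13.6% and 37.4% of 32851 promoters held these letters. Neither window held the ETS letters CCGGAAG (in 8.86% of all promoters), the AP-1 letters TGANTCA (7.81%), the CRE letters TGACGTCA (1.79%), the SMAD box CAGAC (49.6%), the E-box CACGTG (7.15%) or the TEAD letters GGAATG (14.7%).

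More KO than WT cells had a Ddit4l UMI, and the positive KO cells had slightly more UMIs each. With every cell thinned to 5000 UMIs, 14.2% of 4102 KO 1 cells (exact 95% interval 13.1% to 15.3%) and 12.97% of 3353 KO 2 cells (11.9% to 14.2%) had a Ddit4l UMI. In WT 1 and WT 2 the shares were 4.35% of 2232 cells (3.54% to 5.28%) and 4.13% of 3103 cells (3.45% to 4.89%). Positive cells held 1.29 and 1.32 UMIs on average in KO and 1.23 and 1.06 in WT. Cells with at least 3 UMIs made up 0.707% and 0.895% of KO cells and 0.269% and 0.032% of WT cells. Before thinning, 27.99% and 25.4% of KO cells and 9.76% and 11.0% of WT cells were positive, with up to 16 and 18 UMIs in a KO cell and 7 and 6 in a WT cell. The intervals cover counting error only. No cell type that should lack these genes was sorted, so the share that free RNA gives was not measured.

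**Figure D2:**
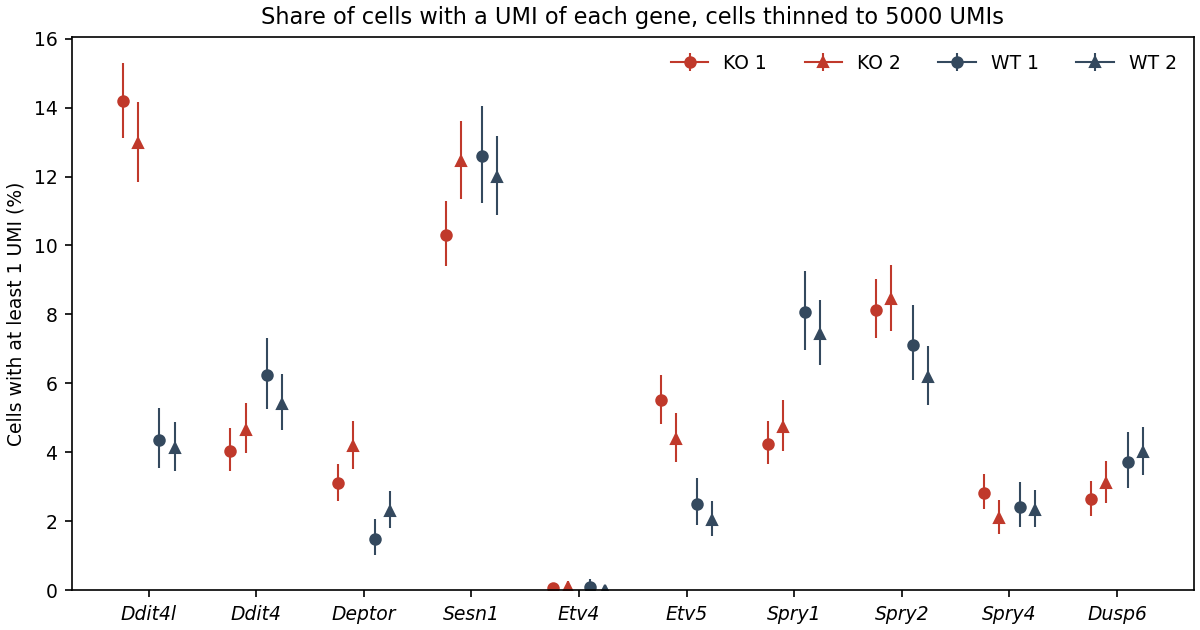
Share of cells with at least 1 UMI of each of the 10 members after thinning every cell to 5000 UMIs, by library, with exact 95% intervals. Ddit4l reached 14.2% and 12.97% in KO against 4.35% and 4.13% in WT, and Etv4 stayed under 0.1% in all 4 libraries.

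Across single cells of a library, Ddit4l was most like Cdkn1a, S100a4 and Mustn1. Cdkn1a encodes the cell cycle inhibitor p21, S100a4 a calcium-binding protein and Mustn1 a small nuclear protein of muscle. Likeness was Pearson's r of log-scaled counts across the cells of each library, compared over 9849 genes. For Cdkn1a it was 0.22 and 0.17 in KO and 0.20 and 0.17 in WT, with means over the 4 libraries of 0.19, 0.16 and 0.14 for the 3 genes. Cells of a library share their depth and their state, so these values are descriptions. Ddit4l and Myh11 counts had r of −0.10 and −0.13 in KO and −0.16 and −0.11 in WT.

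Ddit4l was found in more KO than WT cells also among cells in which no Cdkn1a UMI was sampled, which does not show that they lack the transcript. Cdkn1a itself rose in KO, with 135.1 and 117.0 CPM against 66.9 and 68.5 CPM in WT (log2 0.90, SE 0.08, adjusted p = 0.000274). Of the like genes, Mustn1 rose as well, with 1107 and 969.5 CPM in KO and 513.7 and 480.2 CPM in WT (log2 1.06, edgeR adjusted p = 8.68e-05). S100a4 did not pass (log2 −0.12, edgeR adjusted p = 0.293). Among thinned cells with no Cdkn1a UMI, 11.9% and 11.5% of KO cells had a Ddit4l UMI, against 3.49% and 3.21% of WT cells. Among those with 6 or more Cdkn1a UMIs, the shares were 44.3% and 32.2% in KO (113 and 90 cells) and 31.4% and 21.2% in WT (35 and 33 cells), where the intervals of both KO libraries overlapped those of both WT libraries. Leaving out cells with at least 6 Cdkn1a UMIs per 10000, a step chosen after these values were seen, the log2 difference of Ddit4l was 1.84 (adjusted p = 5.89e-06). This cut is lower than that of 6 UMIs in a thinned cell, and left out 229 and 163 cells in KO and 59 and 72 in WT.

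**Figure D3:**
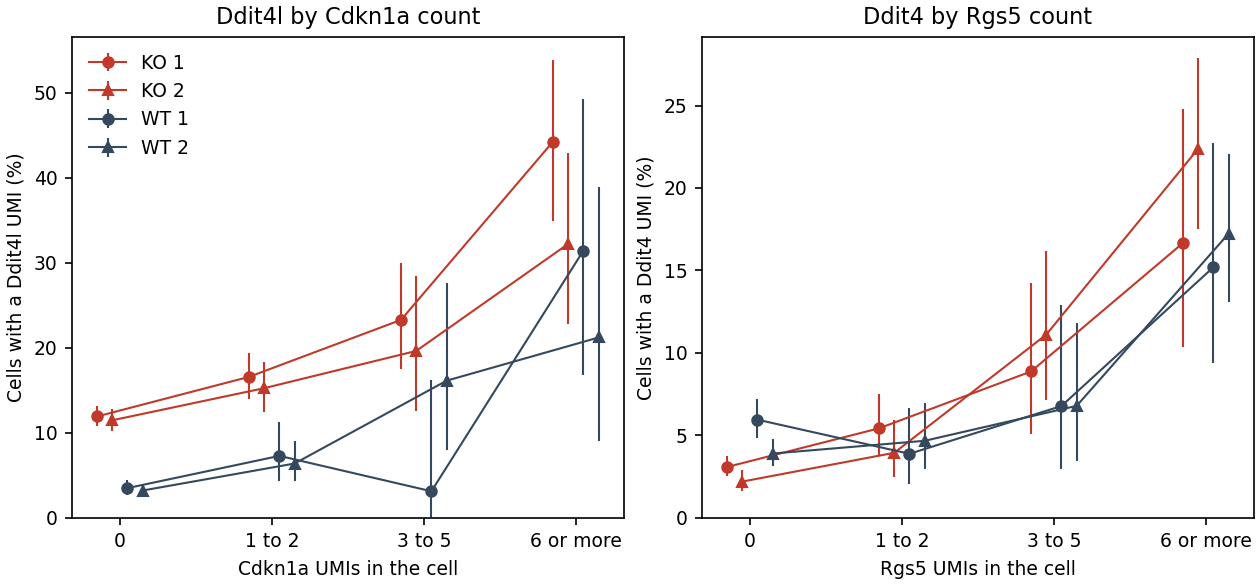
Share of cells (thinned to 5000 UMIs) with a Ddit4l UMI by the cell's Cdkn1a count (left) and with a Ddit4 UMI by its Rgs5 count (right), by library, with exact 95% intervals. KO cells with no Cdkn1a UMI had Ddit4l in 11.9% and 11.5% of cases against 3.49% and 3.21% in WT, and Ddit4 was found in 15.2% to 22.4% of cells with 6 or more Rgs5 UMIs in all 4 libraries.

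Ddit4 transcripts were more frequent in cells high in Rgs5, a regulator of G-protein signalling found in pericytes and some smooth muscle. Rgs5 was not named by the rule for like genes, since its r was 0.13 and 0.34 in KO but 0.05 and 0.26 in WT, and it was picked after these values were seen. In cells with 6 or more Rgs5 UMIs, Ddit4 was present in 16.7% and 22.4% of KO cells and 15.2% and 17.2% of WT cells. In cells with none it was present in 3.08% and 2.20% of KO cells and 5.95% and 3.899% of WT cells. The Rgs5-high cells made up 2.78% and 7.99% of KO cells and 5.60% and 9.35% of WT cells, but held 12.1% and 44.6% of the Ddit4 UMIs in KO and 13.5% and 32.2% in WT. KO 2, where the Ddit4 level came nearest to WT, also had 0.328% of cells with 3 or more Ddit4 UMIs, while KO 1 and WT 2 had none and WT 1 had 0.045%. Without cells holding at least 6 Rgs5 UMIs per 10000, chosen after these values were seen, Ddit4 was lower in KO by the test (log2 −0.69, SE 0.17, adjusted p = 0.0183). Rgs5 stood at 110.1 and 256 CPM in KO and 225 and 344 CPM in WT (adjusted p = 0.231).

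Deptor, an inhibitor that binds both mTOR complexes, rose in KO cells. It had 6.94 and 8.75 CPM in KO, against 2.78 and 3.35 CPM in WT, from 412, 450, 97 and 165 UMIs. Both KO libraries lay above both WT libraries, and the fitted difference was 2.54-fold (log2 1.34, SE 0.17, adjusted p = 0.00116). Over 16 alternatives it ranged from 0.94, after thinning, to 1.5. Thinned cells with a Deptor UMI made up 3.10% and 4.18% in KO and 1.48% and 2.29% in WT. Deptor spans chromosome 15 from 55112317 to 55259271 and overlaps an annotated gene on the opposite strand, Gm9920, to which 13 and 9 UMIs were assigned in KO and 7 and 11 in WT. Whether the counting used strand is not given in the sources used here.

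Sesn1, a p53 target of the sestrin family, was the most abundant member in WT and did not pass. It had 21.9 and 27.9 CPM in KO, against 27.5 and 26.7 CPM in WT (log2 −0.13, SE 0.12, adjusted p = 0.485). The genotypes overlapped, with KO 1 the lowest and KO 2 the highest of the 4 libraries, and without KO 1 the sign turned to 0.04. Its paralogs did not pass either. Sesn3 had 23.9 and 27.2 CPM in KO and 28.2 and 26.4 CPM in WT (adjusted p = 0.493), and Sesn2 had 2.83 and 2.68 CPM in KO and 1.61 and 2.09 CPM in WT (adjusted p = 0.0801). The 3 sestrins summed to 48.6 and 57.8 CPM in KO and 57.3 and 55.3 CPM in WT.

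Few genes around mTOR passed the test. Of 17 tested subunits and substrates of mTOR complexes 1 was called higher and none lower, of 19 upstream inhibitors of mTOR complex 1 also 1 was higher and none lower, and of 27 activators 1 was higher and 2 were lower, against 20.3% called among all tested genes. Without KO 1 or either WT library no subunit or substrate was higher, and 1 was lower without KO 1. Whichever library was left out, no inhibitor was higher, and 1 was lower without WT 2. Of the activators 3 were lower without KO 2 and 1 without either WT library, and 2 were higher without WT 2. The median log2 differences of the 3 lists were −0.02, −0.11 and 0.00. Those called included Eif4ebp1, a translation repressor that mTOR complex 1 phosphorylates (0.27), Kptn, a subunit of a complex that recruits the inhibitor GATOR1 (0.31), the regulatory PI3-kinase subunit Pik3r1 (0.34) and the GATOR2 subunit Sec13 (−0.30). Each of these 4 lost its call when at least 1 library was left out, with adjusted p-values up to 0.163, 0.191, 0.101 and 0.0726 in that order. Mtor itself did not pass (log2 −0.05, SE 0.08, adjusted p = 0.686).

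Etv5, an ETS factor induced by ERK signalling, was the MAPK-side member with the widest difference. It had 11.5 and 9.72 CPM in KO, against 3.898 and 4.49 CPM in WT, from 685, 500, 136 and 221 UMIs. Every KO library exceeded every WT library, and the difference was 2.52-fold (log2 1.34, SE 0.14, adjusted p = 0.000442), with a range of 1.17 to 1.45 over 16 alternatives. Thinned cells with an Etv5 UMI made up 5.51% and 4.38% in KO and 2.51% and 2.03% in WT, with 1.05 and 1.07 UMIs per positive cell in KO and 1.02 and 1.03 in WT. The genotypes thus differed in the share of cells with an Etv5 UMI. At counts this low a positive cell mostly has 1 UMI whatever it expresses, so more expressing cells and more RNA per cell cannot be told apart.

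Etv4, the close relative of Etv5, was almost undetected and was not tested. Its UMIs numbered 3 and 8 in KO and 2 and 0 in WT. No cell of 3265 in WT 2 had one, which at 3 counts allows a share of cells with a UMI of up to 0.0919% and sets no limit on cells expressing the gene. The share was 0.071% and 0.227% in KO and 0.082% in WT 1. Another relative, Etv1, stood at 48.9 and 49.5 CPM in KO and 58.2 and 54.0 CPM in WT and did not pass (log2 −0.19, adjusted p = 0.0981).

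Spry1 and Spry2 moved in opposite directions, and Spry4 did not pass. Spry1 had 9.70 and 9.63 CPM in KO, against 18.9 and 15.4 CPM in WT, and fell to 0.565 of the WT level (log2 −0.82, SE 0.11, adjusted p = 0.00185). The KO libraries were nearly equal and lay below both WT libraries. Spry2 had 19.5 and 17.8 CPM in KO, against 15.1 and 13.6 CPM in WT, and rose 1.30-fold (log2 0.38, SE 0.09, adjusted p = 0.0253). That call was lost without KO 1 (log2 0.31, adjusted p = 0.106), without WT 2 (0.30, 0.121), under a stricter cell filter (0.35, 0.0548) and after thinning (0.32, 0.101). Spry4 had 6.16 and 4.63 CPM in KO, against 5.70 and 4.997 CPM in WT, with overlapping genotypes (log2 0.02, SE 0.17, adjusted p = 0.945).

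Among the Sprouty genes, Spry2 had the most UMIs in both KO libraries and Spry1 in both WT libraries. The ratio of Spry2 to Spry1 CPM was 2.01 and 1.84 in KO and 0.798 and 0.883 in WT, above 1 in each KO library and below it in each WT library. The sum of Spry1, Spry2 and Spry4 was 35.3 and 32.0 CPM in KO and 39.7 and 34.1 CPM in WT, and these ranges overlapped. Thinned cells with a Spry1 UMI made up 4.24% and 4.74% in KO and 8.07% and 7.44% in WT, and those with a Spry2 UMI 8.14% and 8.44% in KO and 7.12% and 6.19% in WT. Spry3 had 0 and 2 UMIs in KO and 0 and 1 in WT.

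The RefSeq promoters of Spry1 (chr3:37639697-37639996, plus strand), Spry2 (chr14:105896770-105897069, minus strand) and Etv5 (chr16:22439521-22439820, minus strand, the first of 2 entries) are shown because these are the MAPK-side genes that passed the test. Capitals mark the CCAAT box on either strand (CCAAT or ATTGG) and, in Spry1, the TEAD letters GGAATG.
Spry1: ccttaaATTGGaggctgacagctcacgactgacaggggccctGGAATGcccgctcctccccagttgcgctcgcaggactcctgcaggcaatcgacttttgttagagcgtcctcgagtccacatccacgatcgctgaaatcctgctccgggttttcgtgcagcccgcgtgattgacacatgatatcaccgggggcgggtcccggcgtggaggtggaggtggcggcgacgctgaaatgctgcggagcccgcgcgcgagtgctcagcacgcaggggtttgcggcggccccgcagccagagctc
Spry2: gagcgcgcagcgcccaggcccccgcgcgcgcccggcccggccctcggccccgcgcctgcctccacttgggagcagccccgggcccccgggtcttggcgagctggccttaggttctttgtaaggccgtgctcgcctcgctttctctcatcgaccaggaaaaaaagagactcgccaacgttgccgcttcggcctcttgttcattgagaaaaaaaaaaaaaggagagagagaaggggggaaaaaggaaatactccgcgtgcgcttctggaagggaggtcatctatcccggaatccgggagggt
Etv5: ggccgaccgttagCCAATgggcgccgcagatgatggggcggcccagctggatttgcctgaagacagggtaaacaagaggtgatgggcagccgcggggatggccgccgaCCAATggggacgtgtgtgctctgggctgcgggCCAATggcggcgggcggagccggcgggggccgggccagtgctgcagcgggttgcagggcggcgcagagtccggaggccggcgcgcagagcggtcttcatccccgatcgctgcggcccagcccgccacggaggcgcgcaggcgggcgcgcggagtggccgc
None of the 3 windows held the ETS, AP-1, CRE, SMAD box, E-box or TATA box letters spelled out above. Spry1 held 1 match to CCAAT and 1 to GGAATG, Etv5 held 3 to CCAAT, and Spry2 held none of the letters searched. The table had entries for 7 of the 10 members.

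Dusp6, the cytoplasmic ERK phosphatase, was lower in both KO libraries without passing. It had 5.46 and 6.88 CPM in KO, against 7.85 and 7.60 CPM in WT (log2 −0.33, SE 0.14, adjusted p = 0.138). The gap between KO 2 and WT 2 was smaller than that between the KO libraries. Over 16 alternatives the difference ranged from −0.50 to −0.17 and never passed, with the lowest adjusted p at 0.0506 without KO 2. Thinned cells with a Dusp6 UMI made up 2.63% and 3.10% in KO and 3.72% and 4.00% in WT.

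**Figure D4:**
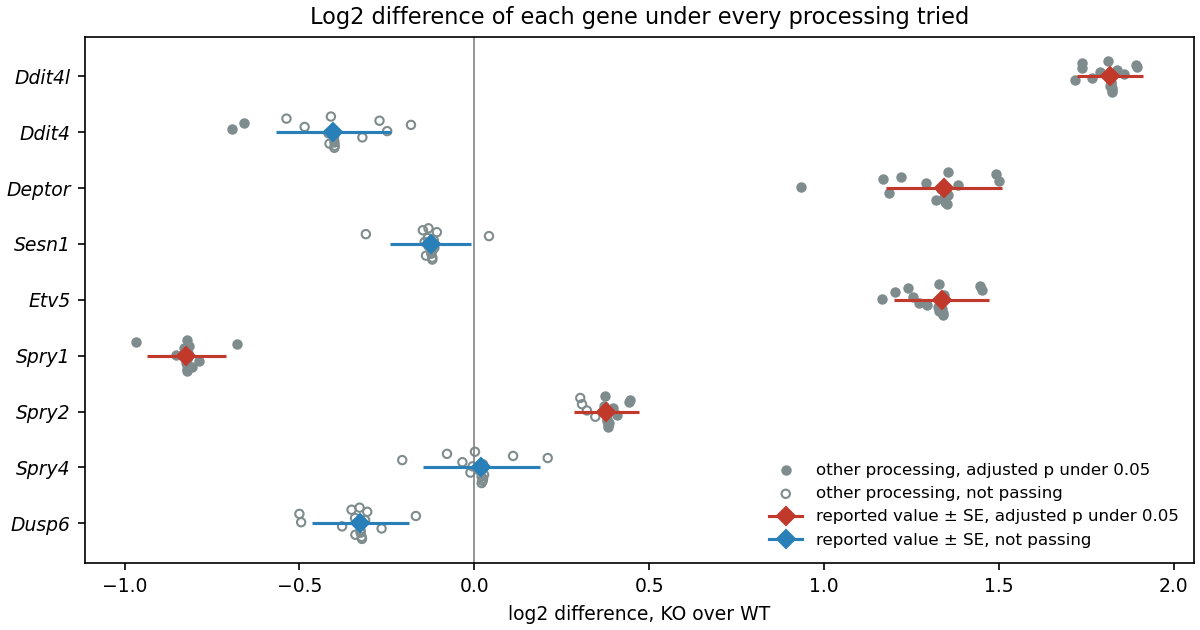
Log2 difference, KO over WT, of the 9 tested members, as reported (diamond with SE, red where the adjusted p was under 0.05 and blue where not) and under each other processing (grey, filled where the adjusted p was under 0.05). Ddit4l, Deptor, Etv5 and Spry1 kept sign and call throughout, Spry2 kept its sign and lost its call in 4 settings, and Sesn1 and Spry4 had values on both sides of 0.

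Few thinned cells held UMIs of 2 members of the same side. On the MAPK side 2.12% and 2.36% of KO cells and 2.20% and 2.13% of WT cells did, and on the mTOR side 3.27% and 3.79% of KO cells and 1.97% and 1.87% of WT cells. Over the 36 pairs of the 9 tested members, the mean r across cells lay between −0.05 (Ddit4 and Spry1) and 0.07 (Ddit4 and Deptor), with a median of 0.01, and 11 pairs were positive in all 4 libraries. Values this small in sparse counts are no finding. After thinning, 78.9% and 79.9% of KO cells and 78.5% and 80.4% of WT cells held no UMI of the 6 MAPK-side genes, so the share did not separate the genotypes. On the mTOR side, 72.0% and 69.9% of KO cells and 77.4% and 78.3% of WT cells held none of the 4 genes. Dusp6 and Spry4 had the immediate early genes Fos and Egr1 as their nearest genes, but r was under 0.1 in at least 1 library for each (Dusp6 with Fos 0.07 and 0.11 in KO and 0.12 and 0.08 in WT, Spry4 with Egr1 0.14 and 0.07 in KO and 0.14 and 0.06 in WT).

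By level, Ddit4l led the 9 tested members in KO cells but stood mid-order in WT cells. The order of mean CPM in KO was Ddit4l (34.4), Sesn1 (24.9), Spry2 (18.6), Etv5 (10.6), Spry1 (9.66), Ddit4 (9.35), Deptor (7.84), Dusp6 (6.17) and Spry4 (5.40). In WT it was Sesn1 (27.1), Spry1 (17.2), Spry2 (14.4), Ddit4 (12.4), Ddit4l (9.79), Dusp6 (7.73), Spry4 (5.35), Etv5 (4.19) and Deptor (3.07). In KO the library ranges of Etv5 and Ddit4, of Spry1 and Ddit4, of Ddit4 and Deptor, and of Dusp6 and Spry4 overlapped. In KO 2 Ddit4 (10.9 CPM) exceeded Etv5 (9.72 CPM). No neighbours in the WT order overlapped, although Spry2 in WT 2 (13.6 CPM) and Ddit4 in WT 1 (13.5 CPM) nearly met.

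Other feedback genes of the MAPK pathways also moved in both directions. Of 18 further ERK feedback and target genes tested, 4 rose, 4 fell and 10 did not pass (median log2 0.27), against 20.3% called among all tested genes. The transcription factor Myc rose by 1.44 on the log2 scale from low levels, with 3.92 and 2.66 CPM in KO and 1.61 and 0.894 CPM in WT. Egr1, an immediate early ERK target, had 92.6 and 55.1 CPM in KO and 177 and 156 CPM in WT (log2 −1.17, SE 0.20, adjusted p = 0.00555). Ier3 and the receptor inhibitor Lrig1 had log2 differences of −0.96 and −0.78. Ccnd1 (0.87) and Spred3 (0.46) were called, but Ccnd1 lost its call without any 1 library (adjusted p up to 0.137) and Spred3 without KO 1 or WT 2 (up to 0.113). The count of rises was 1 without KO 1 and 2 without either WT library. Of 7 other MAPK phosphatases 2 rose and 3 fell, or 1 fell without WT 2 and 2 without either KO library. Dusp10, which acts on p38 and JNK, had 27.8 and 39.2 CPM in KO and 15.6 and 17.8 CPM in WT (log2 1.00), whereas Dusp1, which acts on several MAPKs, had 182 and 186 CPM in KO and 575 and 478 CPM in WT (log2 −1.52).

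Genes of the ERK cascade, its receptors and their ligands are given by list, against 20.3% called among all tested genes. Of 25 tested genes of the RAS-RAF-MEK-ERK cascade, 2 were called higher and none lower (1 lower without KO 2), Rras (log2 0.28) and Grb2 (0.23). Grb2 lost its call without any 1 library (adjusted p up to 0.183) and Rras without WT 1 (0.0992). Of 13 receptors 5 fell and 1 rose, though only 1 fell without WT 1 and 3 without KO 2, and none rose without KO 2 or either WT library. The receptor Erbb4 had 3.13 and 2.84 CPM in KO against 10.3 and 10.2 CPM in WT (log2 −1.78, SE 0.12, adjusted p = 6.65e-05). Of 18 ligands 7 fell and 3 rose. Hbegf, a ligand of EGF receptors, had 32.6 and 32.0 CPM in KO and 73.4 and 75.1 CPM in WT (log2 −1.20). Pdgfb and Fgf16 had log2 differences of −1.35 and −1.60, and Igf1, Igf2 and Vegfa of 1.54, 1.19 and 0.84.

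**Figure D5:**
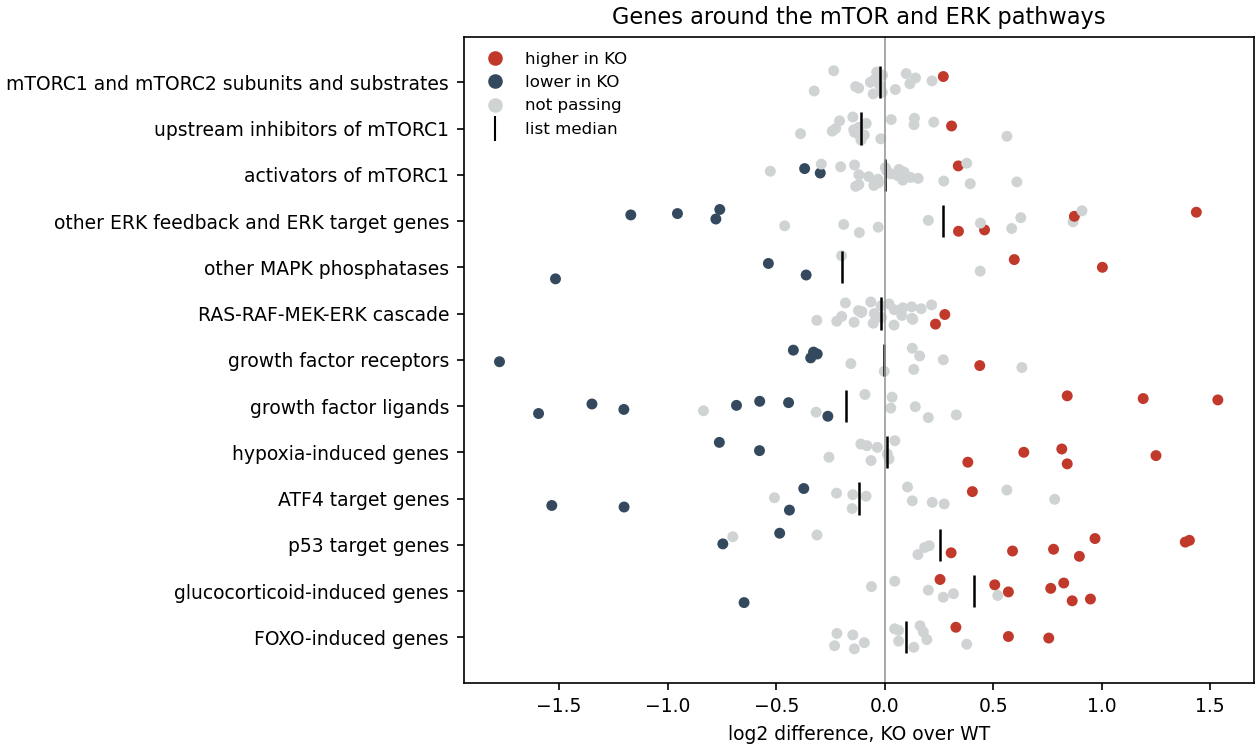
Log2 difference, KO over WT, of each tested gene in 13 lists around the mTOR and ERK pathways (red higher, dark blue lower, grey not passing, bar at the list median). Most genes of the mTOR lists and the ERK cascade lie near 0 and few of them passed, and the ERK feedback, phosphatase and ligand lists spread to both sides.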

How the data were processed

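Single-cell libraries of sorted aortic smooth muscle cells were compared, 2 from KO and 2 from WT mice. The authors deposited raw UMI counts for each gene and cell barcode. Per the file headers, Cell Ranger 5.0.1 wrote them. The submitters' processing notes name the mm10 build, and Seurat 4.0 without its role. Gene positions are from GENCODE M21 (GRCm38).

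Kept cells had at least 1000 UMIs and 500 genes, and a mitochondrial share of at most 10%: 4252 and 3522 of 4504 and 3858 barcodes in KO and 2429 and 3265 of 2769 and 3565 in WT. The labels state 4031, 3246, 2151 and 3000 cells after a filter that they do not describe. No doublets were removed; one alternative left out the 5% of cells with most UMIs. Counts were summed per library, scaled with TMM factors (0.99 to 1.02) and compared by the quasi-likelihood test of edgeR 4.0.16 in R 4.3.3, after its default expression filter, with Benjamini-Hochberg adjustment over 14474 genes at 0.05. The test was checked on simulated counts of 14293 genes, with 50 genes changed at each fold. It called 75.5% of those at 0.5-fold, 58% at 0.667-fold, 74% at 1.5-fold and 92% at 2-fold. It also called 21 genes that had not been changed, so a call at 0.05 can be false. The biological coefficient of variation was 7.84%. For shares of cells, each cell was thinned to 5000 UMIs, leaving out 150, 169, 197 and 162 shallower cells of KO 1, KO 2, WT 1 and WT 2. Intervals are exact Clopper-Pearson intervals at 95%.

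Alternatives were DESeq2 1.42.0, its size factors in edgeR, limma-voom (limma 3.58.1), other filters on genes and cells, thinning, each library left out and the replicate number as a block. Named genes were the members, the 3 largest called rises and falls of each list (mean 1 CPM or more), and the 3 genes most like each member across cells where r was at least 0.1 in every library. Others were chosen after their values were seen. A gene that this rule named is not reported here. The members and lists were chosen with earlier results of these data known.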

Additional observations from a re-analysis of the deposited data

How the results depend on the processing

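Ddit4l, Deptor, Etv5 and Spry1 kept their direction and call in every alternative that could fit them, 17 for Ddit4l and 16 for the others. Where genes under a mean of 20 CPM were dropped, only Ddit4l and Sesn1 could be fitted, so 1 member was called higher and 0 lower there, by construction, with 625 genes higher and 918 lower of all and 19 lower in the lists together.

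Ddit4 passed without a filter on low counts (−0.40, adjusted p = 0.0037), without Rgs5-rich cells (−0.69), a step chosen after seeing the data, and without KO 2, which made 2 members lower in each case. Leaving out each library gave −0.66 to −0.18 for Ddit4, −0.31 to 0.042 for Sesn1 (0.042 without KO 1), 0.30 to 0.45 for Spry2 and −0.21 to 0.21 for Spry4, and 3 to 4 members higher and 1 to 2 lower. Spry2 lost its call under the stricter cell filter (0.35) and after thinning (0.32), besides without KO 1 (0.31) and WT 2 (0.30). Spry4 was −0.011 under the stricter cell filter, −0.005 after thinning, −0.034 without Cdkn1a-rich cells, −0.21 without KO 1 and −0.08 without WT 2, never passing. The cause was not tested. Over all genes, leaving out a library gave 805 to 1161 higher and 1039 to 1297 lower, against 1327 and 1611, with the lowest counts without WT 1.

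The share of positive cells moved with depth by construction. KO minus WT was 9.35 points for Ddit4l after thinning to 5000 UMIs, 16.3 without thinning and 5.98 at 3000 UMIs. In the same order without thinning and at 3000 UMIs, it was −4.62 and −0.59 for Ddit4, 7.44 and 2.04 for Etv5, −7.62 and −2.71 for Spry1, 4.03 and 1.13 for Spry2, and −1.85 and −0.17 for Dusp6. Without thinning it was 5.47 for Deptor, −2.70 for Sesn1 and 0.11 for Etv4. The Ddit4 and Dusp6 shares overlapped between genotypes at 3000 UMIs.

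Whether the replicate numbers mark pairs of libraries was not settled. Over 5743 genes, deviations of the first KO and WT libraries from their genotype means correlated at −0.005. Such a value over many genes does not show whether single genes moved with the replicate number. With the number as a replicate block, 4 members stayed higher and 1 lower, Ddit4l at 1.81 and Spry2 at 0.37 (adjusted p = 0.0166), and 1523 genes were higher and 1751 lower. A gene that did not pass is not shown to be equal between genotypes.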

Other observations

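Lists of genes induced by stress and hormones, inducers known for Ddit4 and Sesn1, also held called genes. Among all tested genes, 9.17% were called higher and 11.1% lower. These lists were chosen with earlier results of these data known, so their counts are descriptions. Of 14 glucocorticoid-induced genes 7 rose and 1 fell (median log2 0.41), among them the clock gene Per1 (0.95), the chaperone Fkbp5 (0.86) and the metallothionein Mt2 (0.83), while Tsc22d3 fell by 0.65. Of 14 p53 target genes 7 rose and 2 fell (median 0.26), or 4 rose without WT 2 and none fell without WT 1. Gdf15, a stress-induced cytokine, had 14.9 and 11.6 CPM in KO and 5.36 and 4.81 CPM in WT (log2 1.39, edgeR adjusted p = 0.0005), and Cdkn1a rose by 0.90, whereas Sesn1 did not pass. Of 15 hypoxia-induced genes 5 rose and 2 fell (median 0.01), with the prolyl hydroxylase Egln3 at 1.25, Ndrg1 at 0.82 and the glycolytic regulator Pfkfb3 at −0.76.

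Of 16 ATF4 target genes 4 fell and 1 rose (median −0.12), or 2 fell without KO 2 and 3 rose without WT 2. Atf4, the transcription factor of amino acid stress, had 67.6 and 71.6 CPM in KO and 102 and 87.1 CPM in WT (log2 −0.44, edgeR adjusted p = 0.0095). Of 16 FOXO-induced genes 3 rose and none fell (median 0.10), with Cited2 at 0.76 and Klf15 at 0.57. All tested genes had a median of 0.00 and 20.3% were called.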
